A study of Mus musculus with 405 samples.

Results

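The proteasome subunit genes are the 45 genes whose symbols begin with Psma, Psmb, Psmc, Psmd or Psme followed by a digit, out of 23893 genes in the tables used here. All 45 were listed in a table of read counts for pyraclostrobin, and 41 were among the 13304 genes of a table of normalized expression from a chemical screen. Psma8, Psmb8, Psmb9 and Psmb11 were in the count table alone. Of the 45 genes, 31 encode subunits that the proteasome of nearly every cell contains, here called constitutive subunits. The other 14 are 5 genes for 20S subunits used in particular tissues or in immune activation, 3 for assembly factors of the 19S particle, 4 for proteasome activators, Psme2b, a near copy of the activator gene Psme2, and Psmc3ip, which matches by name only and encodes a partner of recombination proteins. The members were chosen by symbol and not by their values.

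The proteasome is the protease that breaks down most short-lived and damaged proteins in the cytoplasm and nucleus after they have been tagged with ubiquitin. Its 20S core is a barrel whose outer rings of alpha subunits form the gate and whose inner rings of beta subunits hold the active sites, and its 19S cap recognizes ubiquitin chains and uses a ring of ATPases to unfold the substrate. When proteasomes are inhibited, the transcription factor Nrf1, encoded by Nfe2l1, raises most constitutive subunit genes together, and NRF2, encoded by Nfe2l2, which responds to thiol-reactive and oxidizing chemicals, has also been reported to raise some of them. Neurons depend on the proteasome for turnover of synaptic proteins, and faulty protein clearance is a feature of neurodegenerative disease.

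Cortical cultures were made from embryos at embryonic day 15 of C57BL/6J dams crossed to CAST/EiJ males, so that every library carries the same hybrid genotype. The day is that of the labels, and the study's text places the dissection slightly earlier. The cultures were exposed on day 7 in vitro, for 24 h, to one of 297 chemicals or to vehicle (DMSO), and polyadenylated RNA was sequenced. The screen held 344 libraries of chemicals, 32 of them topotecan, and 49 vehicle libraries; most chemicals had 1 library. The count table held 4 libraries of pyraclostrobin at 0.1 μM and 4 of vehicle. The medium held an inhibitor of mitosis from day 3 of culture. The labels do not say whether the libraries of a group came from separate cultures. For pyraclostrobin the study's text speaks of biological replicates, fewer than the libraries of a group here, without tying them to libraries, so p-values measure the spread between these libraries, which may in part be technical.

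Values of the screen are given as log2 deviations of a gene from its own median over the screen, so 0 is the middle library and no level can be read from them. Values of the count table are CPM, counts scaled to a common library total after each total was multiplied by its TMM normalization factor. These factors ran from 1.04 to 1.06 in the pyraclostrobin libraries and from 0.928 to 0.973 in the vehicle libraries. CPM were thus lower in pyraclostrobin libraries, and higher in vehicle libraries, than they would be on raw totals. The precision of CPM depends on depth. Raw totals ran from 2409623 to 2893598 counts in 6 libraries and were 7082405 and 7833440 counts in 2 vehicle libraries. The cultures are labelled as cortical neurons. In vehicle, 7 neuron markers summed to between 8597 and 9163 CPM, 6 astrocyte markers to between 273 and 861 CPM and 7 microglia markers to between 20.9 and 29.1 CPM, so other cells were present. The 6 mesenchymal and vascular markers summed to between 24.4 and 52.2 CPM, and of these Cldn5 had no count in any of the 8 libraries. In these bulk samples fewer cells of a type and less RNA per cell cannot be told apart. The first vehicle library of the count table stood apart, as did the first pyraclostrobin library in astrocyte markers. The counts of called members for pyraclostrobin are given with and without these libraries. Levels in vehicle include that vehicle library, and the median log2 difference for pyraclostrobin includes both.

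The promoters of the members were examined for the antioxidant response element, the sequence that NRF2 and Nrf1 bind, because it is the feature that would tie subunit genes to thiol-reactive chemicals. RefSeq (GRCm38.p6) promoter windows from 250 bases before to 50 bases after the gene start were given for 38 members. The core of the element, TGACNNNGC on either strand, was found in 6 of the 38 windows (15.8%) against 14% of the 27025 windows of all genes, and CCAAT, on either strand, was found in 39.5% of members and 41.1% of all genes. The 6 windows are shown around the match, in the direction of the gene and with the match in capitals; in Psmc6, Psmd12 and Psme4 the match is to the other strand and is read here as its reverse complement. They belong to Psmb5 (chr14:54618010-54618066, minus strand), Psmb6 (chr11:70525324-70525356, plus strand), Psmc6 (chr14:45329574-45329629, plus strand), Psmd9 (chr5:123228135-123228189, plus strand), Psmd12 (chr11:107479278-107479313, plus strand) and Psme4 (chr11:30771744-30771776, plus strand).
Psmb5: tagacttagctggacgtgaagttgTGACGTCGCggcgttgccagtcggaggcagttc
Psmb6: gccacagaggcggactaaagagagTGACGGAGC
Psmc6: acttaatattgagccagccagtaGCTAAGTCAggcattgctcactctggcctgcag
Psmd9: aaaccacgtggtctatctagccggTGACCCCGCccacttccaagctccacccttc
Psmd12: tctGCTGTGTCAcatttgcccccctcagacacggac
Psme4: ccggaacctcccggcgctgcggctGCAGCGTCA
A match is a stretch of letters and not a shown binding site, and the share among members was close to that among all genes.

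Levels were compared within the count table, per kb of the longest annotated transcript, in vehicle. The most abundant of the 20S genes was Psmb4, a structural beta subunit, at 114 CPM per kb, and the beta subunits that carry the active sites stood at 69.8 for Psmb6, 40.4 for Psmb7 and 32.9 for Psmb5. In the alpha ring Psma1, Psma6 and Psma7 lay between 49.3 and 58.0 CPM per kb. The 19S ATPases ran from 17.2 for Psmc1 to 72.3 for Psmc5, and the non-ATPase subunits from 4.50 for Psmd11, a scaffold subunit, to 72.2 for Psmd7, the partner of the deubiquitinase Psmd14. Thus most constitutive subunits lay within a few-fold of one another, while Psma2, Psma3, Psma5 and Psmb3 were listed at only 3.67, 4.31, 2.13 and 1.99 CPM per kb. The lengths used for Psma2, Psma3 and Psmd11 were 2668, 2846 and 2848 bases, against 1201 for Psma1, which lowers their values per kb. As CPM, Psma2, Psma3, Psma5 and Psmb3 stood at 9.80, 12.3, 2.64 and 1.52, against 69.6 for Psma1. Whether the counting assigned all reads of these genes was not tested.

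Of the immunoproteasome genes, whose products replace active beta subunits during interferon responses, Psmb8 stood at 1.13 and Psmb9 at 0.256 CPM per kb, below every constitutive subunit, and Psmb10 at 15.9, near Psmc1. Psmb11, the thymus subunit, had 1 count in all 8 libraries together, and Psma8, the testis subunit, had 1 count in each of 2 libraries and 0 in the other 6. Among activators Psme3, the nuclear activator, was highest at 53.4 CPM per kb, followed by Psme1 at 14.6 and Psme4 at 9.40. Psme2 was listed at between 1.16 and 2.13 CPM in all 8 libraries and its near copy Psme2b at between 34.4 and 66.3 CPM. The counting could have split reads between these copies, so neither level can be assigned to one gene.

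Across the 297 chemicals the constitutive subunits varied little. The SD of a subunit over chemicals had a median of 0.207 on the log2 scale, against 0.261 over all 13304 genes, and 22 of 31 subunits lay below the latter. The least variable was Psmd7 with an SD of 0.128, and the activator Psme3 was lower still at 0.107. The largest SDs belonged to Psmb3 (0.903), Psme2 (0.814), Psma5 (0.731) and Psmc3ip (0.700), which are the least counted genes of the screen's members in the count table, with means of 1.52 to 2.64 CPM in vehicle. The spread between vehicle libraries had nearly the same size, with a median SD of 0.199 for constitutive subunits and 0.254 for all genes.

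The subunits moved together to a modest extent. Over 465 pairs of constitutive subunits the median Spearman correlation across chemicals was 0.18, and 433 pairs were above 0, whereas the median over all pairs of genes was -0.00088. Vehicle libraries gave a median of 0.14, so untreated cultures showed it too. The closest pairs were Psmc1 with Psmd2 (0.40), Psmd1 with Psmd2 (0.39) and Psma6 with Psmc3 (0.37), the first joining an ATPase and the large scaffold subunit of the same 19S base. These points share normalization and culture batches, and the correlations are given as descriptions.

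Several members did not follow the others: the correlation with the median of the remaining constitutive subunits was -0.03 for Psmd11 and 0.06 for Psma3, and outside the constitutive subunits 0.05 for Psme2b, 0.06 for Psme4 and 0.06 for Psmc3ip. The same measure was 0.54 for Psmd2, 0.53 for Psmc1 and 0.50 for Psmd1. Outside the members, the 10 genes closest to the median of the constitutive subunits over 297 chemicals were Akr1a1, an aldehyde reductase (Spearman correlation 0.62), the ribosomal protein gene Rplp1 (0.59), Atp5g3 of the mitochondrial ATP synthase (0.59), the thioesterase Acot7 (0.55), the nucleoside diphosphate kinase Nme1 (0.54), the ubiquitin hydrolase Uchl1 (0.53), Sepw1 (0.52), Cox4i1 of cytochrome oxidase (0.51), the endoplasmic reticulum isomerase Pdia3 (0.51) and Gnb2l1 (0.50). These 10 were picked for being closest. The medians of whole lists gave 0.11 for NRF2 targets, 0.15 for heat shock genes, 0.09 for metallothioneins, 0.02 for neuron markers and -0.12 for astrocyte markers over the 297 chemicals. Over the 49 vehicle libraries the same lists gave -0.03, 0.11, 0.27, -0.31 and 0.11.

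The median deviation of the 31 constitutive subunits was then used to place each chemical. It ran from -0.29 to 0.35 over chemicals, with an SD of 0.097, and from -0.30 to 0.15 over vehicle libraries, with an SD of 0.086. Thus the chemicals as a set were spread about as widely as untreated cultures. Above the highest vehicle library stood 16 of 297 chemicals, and below the lowest stood 0. The lowest vehicle library lay further from 0 than the highest. More than 2 vehicle SDs above the vehicle mean stood 13 chemicals, and more than 2 below it stood 9. For the 13 chemicals with 2 libraries, the libraries of a pair differed by 0.11 in the median case and by 0.24 at most.

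The highest medians were those of chlorothalonil at 1 μM (0.35), metsulfuron at 10 μM (0.29), methidathion at 10 μM (0.26), spirodiclofen at 10 μM (0.26) and cyproconazole at 1 μM (0.24). The lowest were those of bensulide (-0.29), formetanate hydrochloride (-0.26), benomyl (-0.24) and difenoconazole (-0.23), all at 10 μM, and of emamectin benzoate at 1 μM (-0.23). Of these 10 chemicals chlorothalonil alone had a second library. These chemicals were picked for their values, which are therefore a description.

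**Figure D1:**
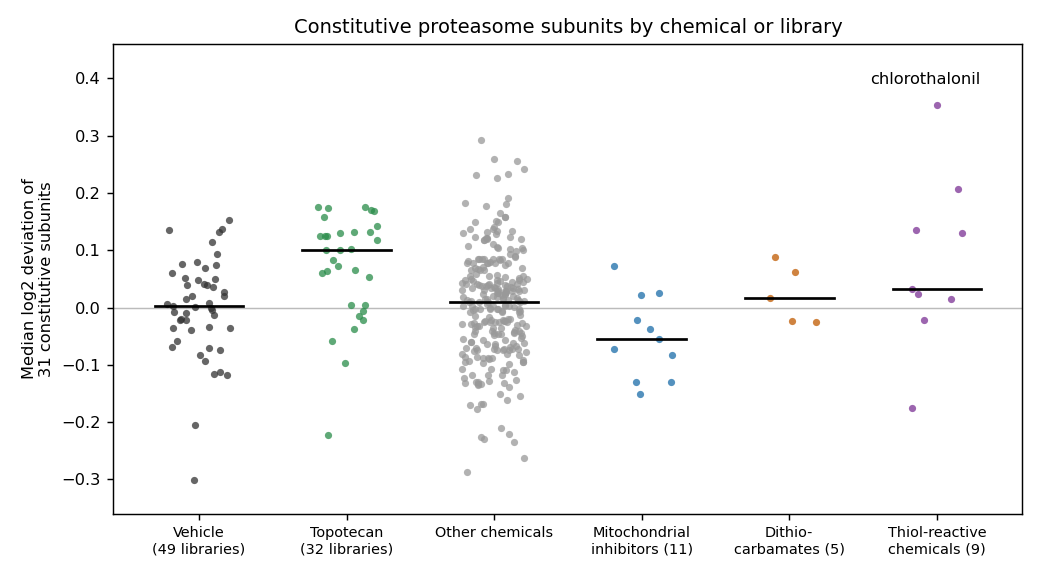
Median log2 deviation of the 31 constitutive subunit genes, 1 point per vehicle library, topotecan library or chemical, with a line at the median of each group. Chlorothalonil stands at 0.35 while the dithiocarbamates lie between -0.03 and 0.09 and the vehicle libraries between -0.30 and 0.15.

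Dithiocarbamates are sulfur fungicides that bind metals and thiols. All 5 were used at 10 μM. The median over constitutive subunits was 0.09 for metam-sodium hydrate, 0.06 for mancozeb, 0.02 for metiram-zinc, -0.02 for maneb and -0.03 for thiram, all within the range of vehicle libraries. In limma, with the 5 chemicals against the 283 of neither class, 0 of 41 members passed an adjusted p of 0.05, where the share over all genes was 0% (percent called), with 743 of 13304 genes and 2 of 41 members at an unadjusted p under 0.05. The median log2 difference was 0.05 over constitutive subunits and -0.00 over all genes, and the 95% interval of the difference lay within 0.5 of 0 for 35 of 41 members.

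The largest differences among members were those of activators. Psme4, which encodes the activator PA200, was at 0.38 in mancozeb, 0.47 in maneb, 0.18 in metiram-zinc, -0.05 in thiram and 0.71 in metam-sodium hydrate. It was thus above 0 in 4 of the 5 chemicals, with a log2 difference from the other chemicals of 0.34 (SE 0.11, 95% interval 0.12 to 0.55), which did not pass the test (limma, adjusted p = 0.704). Psme2, low in counts, gave -0.89 (SE 0.36, limma, adjusted p = 0.796).

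Genes of other stress responses were high in single members of the class. Hmox1, the heme oxygenase that NRF2 drives, was at 1.41 in mancozeb and 1.25 in metiram-zinc but at -0.35 in maneb, 0.30 in thiram and 0.28 in metam-sodium hydrate. Mt1, a metallothionein that binds metals, was at 1.89 in thiram and between -0.13 and 0.56 in the other 4. Neither gene was thus high across the class. Ethylenethiourea, a breakdown product of mancozeb, maneb and metiram-zinc that carries no dithiocarbamate group, was used at the same dose and had a subunit median of -0.07, with Hmox1 at -0.62. Over the 12 NRF2 targets 0 passed the test for the class (adjusted p over all genes, limma), with all 12 differences above 0 and 2 at an unadjusted p under 0.05.

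The thiol-reactive chemicals are 9 fungicides and soil fumigants that add to or oxidize thiols: captan, folpet, anilazine, methyl isothiocyanate and TCMTB at 10 μM and captafol, chlorothalonil, dazomet and methylene bis(thiocyanate) at 1 μM. Their subunit medians ran from -0.18 for methylene bis(thiocyanate) to 0.35 for chlorothalonil. Between these lay anilazine (0.21), TCMTB (0.14), captan (0.13), dazomet (0.03), folpet (0.02), captafol (0.02) and methyl isothiocyanate (-0.02). Anilazine, next to chlorothalonil, also lay above every vehicle library. The doses differ within the class, so the chemicals are set side by side and not ranked by potency. The less specific reagents 3-iodo-2-propynylbutylcarbamate at 1 μM and symclosene at 10 μM, kept outside the class, gave 0.07 and -0.07.

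As a class, 0 of 41 members passed the test in limma (9 chemicals against 283), where 0.015% of all genes did. At an unadjusted p under 0.05 there were 6 of 41 members and 684 of 13304 genes. The differences were above 0 for 28 of 31 constitutive subunits, against 53.1% of all genes, with a median of 0.09 against 0.01. All 11 non-ATPase and all 6 ATPase subunits of the 19S particle and all 7 beta subunits lay above 0, while 3 of 7 alpha subunits lay below. These counts rested in part on chlorothalonil: without it 22 of 31 constitutive subunits lay above 0, with a median of 0.05. By part these were 9 of 11 non-ATPases, 4 of 6 ATPases, 6 of 7 beta and 3 of 7 alpha subunits. Psmd2, the scaffold subunit of the 19S base, had the smallest p of the members: it was at 0.46 in chlorothalonil, 0.25 in TCMTB, 0.24 in captan, 0.17 in folpet, 0.14 in captafol, 0.08 in anilazine, -0.02 in dazomet, -0.05 in methylene bis(thiocyanate) and -0.11 in methyl isothiocyanate. It was above 0 in 6 of the 9, and the class differed from other chemicals by 0.16 (SE 0.05, limma, adjusted p = 0.558).

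Set directly against each other, the dithiocarbamates and the thiol-reactive chemicals gave 0 of 41 members called, 0% over all genes (percent called) and 648 genes and 2 members at an unadjusted p under 0.05 in limma. The median difference over constitutive subunits was -0.05. For 31 of 41 members the 95% interval lay within 0.5 of 0, so for the other 10 a difference of that size lay inside the interval. Against the 283 chemicals of neither class, astrocyte markers lay lower in the thiol-reactive class, with 5 of 5 measured markers below 0 and a median difference of -0.28. In the direct contrast, dithiocarbamates minus thiol-reactive chemicals, their differences ran from 0.03 for Gfap to 0.33 for Aldoc. None passed the test in limma in either fit, and the part of these markers in the subunit values was not tested.

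**Figure D2:**
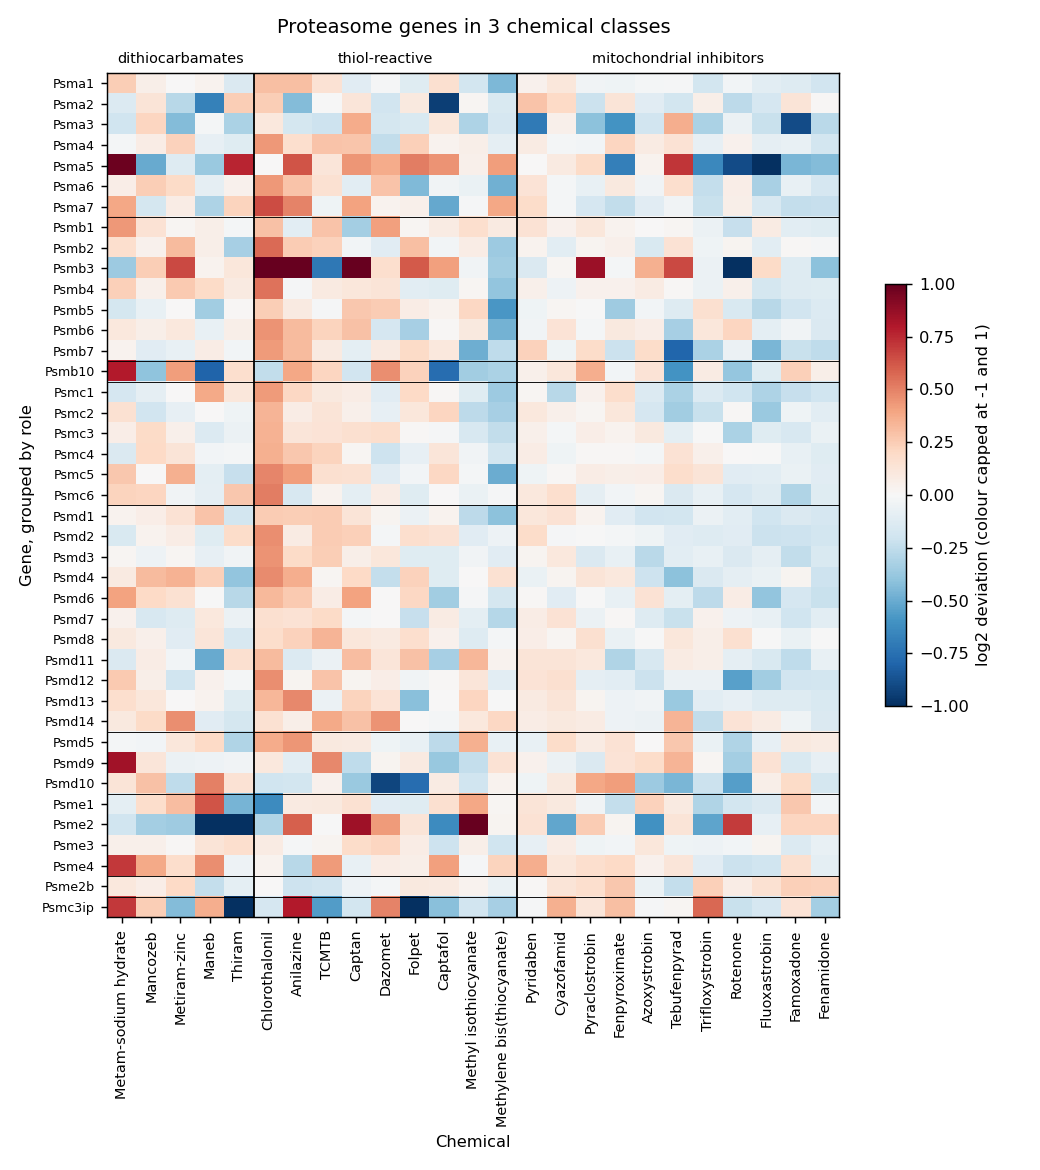
Log2 deviation of the 41 members of the screen (rows, by role) in 5 dithiocarbamates, 9 thiol-reactive chemicals and 11 mitochondrial inhibitors (columns), red above and blue below the median of the gene, with the colour capped at -1 and 1. The chlorothalonil column is above 0 throughout the constitutive subunits and below 0 at Psmb10, Psmd10 and Psme1, among other members.

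Chlorothalonil, a fungicide that consumes glutathione and other thiols, was the highest chemical of the screen for the subunit median, and both of its libraries showed it, at 0.37 and 0.37. Since it was singled out for this value, what follows is a description without a test. Its mean over both libraries was above 0 for 31 of 31 constitutive subunits. Both libraries were above 0 for 29 of 31, against 29.8% of all genes, and both were above every one of the 49 vehicle libraries for 5 of 31, against 0.894% of all genes. It ranked among the 10 highest of 297 chemicals for 14 of 31 subunits, against 2.79% of all genes.

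High values were found in every part of the particle. In the alpha ring Psma7 was at 0.81 and 0.50 in the 2 libraries and Psma4 at 0.28 and 0.59. In the beta ring Psmb2 was at 0.49 and 0.65 and Psmb4 at 0.56 and 0.53, with vehicle libraries reaching 0.39 and 0.28. Both libraries thus passed the highest vehicle library for Psmb2 and Psmb4.

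Of the 19S base, the ATPase Psmc6 was at 0.44 and 0.59 with a highest vehicle value of 0.41. The ubiquitin receptor Psmd4 was at 0.43 and 0.51 (vehicle up to 0.38) and the lid subunit Psmd3 at 0.42 and 0.48 (vehicle up to 0.28). Psmc6, Psmd2 and Psmd3 were higher in chlorothalonil than in any other chemical. The active-site subunit Psmb5, at 0.10 and 0.39, passed the highest vehicle value of 0.37 in 1 library, and the deubiquitinase Psmd14, at 0.09 and 0.21, stayed below its highest vehicle value of 0.61.

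Members that are not constitutive subunits did not share this pattern. Both libraries were above 0 for 3 of these 10, with medians over the 10 of -0.05 and 0.01. Psme1, an interferon-inducible activator, was at -0.75 and -0.51, the immunoproteasome gene Psmb10 at -0.26 and -0.24, and the assembly factor Psmd10 at -0.27 and -0.12. The 3 with both libraries above 0 were Psmd5, another assembly factor, at 0.34 and 0.41, Psme3, and Psme4, at 0.07 and 0.00.

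Some other genes of protein quality control were high in the same libraries, and others were not. Both libraries were above 0 for 9 of 15 regulators of proteasome expression and substrate delivery. The same held for 5 of 12 assembly factors, inhibitors and associated proteins, against 29.8% of all genes. Both libraries passed every vehicle library for 4 of these 15 and 0 of these 12, against 0.894% of all genes. Hspa1b, an inducible Hsp70, was at 2.27 and 2.15, where the highest vehicle library was at 0.72, and 6 of 7 heat shock genes were above 0 in both libraries. Sqstm1, the autophagy receptor p62, was at 0.72 and 1.03. Vcp, the unfoldase that feeds the proteasome, was at 0.23 and 0.37, below its highest vehicle library at 0.39. NRF2 targets were above 0 in both libraries for 10 of 12 genes, with Hmox1 at 1.11 and 1.06 and Srxn1 at 1.01 and 1.01. Nfe2l1 itself was at -0.11 and -0.13. Astrocyte markers were above 0 in both libraries for 0 of 5, with medians of -0.11 and -1.06 in the 2 libraries, and their part in the subunit values was not tested.

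High NRF2 targets were also found in chemicals whose subunit medians lay near 0. Over the 297 chemicals the Spearman correlation of both medians was 0.11. The median over 12 NRF2 targets was 0.51 in methyl isothiocyanate, 0.48 in metiram-zinc, 0.43 in mancozeb and 0.45 in chlorothalonil, whereas the subunit medians of the first 3 were -0.02, 0.02 and 0.06. Nqo1, a quinone reductase, reached 2.03 in methyl isothiocyanate. Hspa1b was at 1.20 in TCMTB and 0.99 in methyl isothiocyanate.

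**Figure D3:**
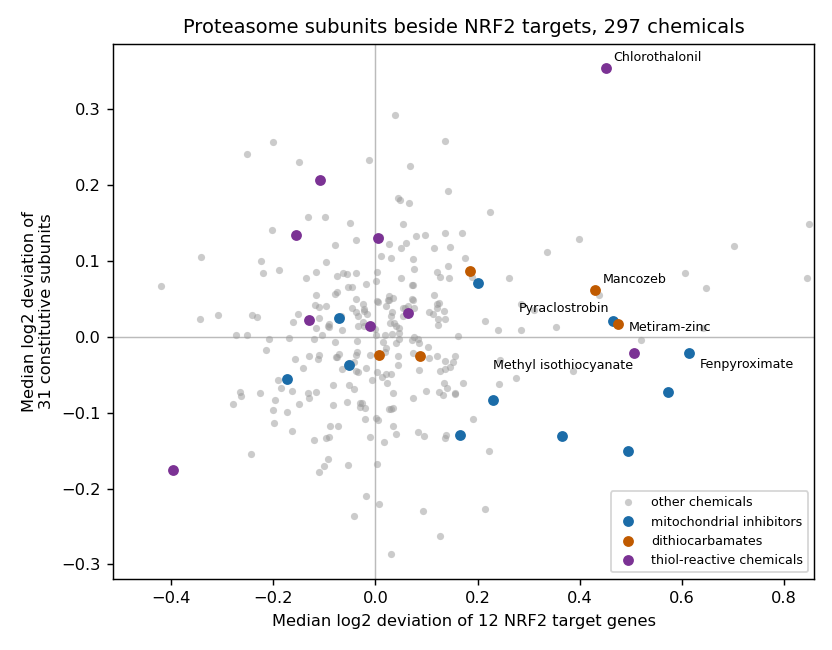
Median log2 deviation of the 31 constitutive subunits (vertical) against that of 12 NRF2 target genes (horizontal), 1 point per chemical, coloured by class. Mancozeb, metiram-zinc, methyl isothiocyanate, pyraclostrobin and fenpyroximate lie far to the right near a subunit median of 0, and chlorothalonil lies both right and high.

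Mitochondrial inhibitors, 11 pesticides that block respiratory complex I or III, were compared with the 272 chemicals outside the 3 classes. Their subunit medians ran from -0.15 (fenamidone) to 0.07 (pyridaben), with a class median of -0.06. In limma 1 of 41 members passed the test, Psma3, which fell, where 24.6% of all genes were called, 8.82% higher and 15.8% lower. The called share was lower among members than among all genes. The median difference over constitutive subunits was -0.05 against -0.00 over all genes, with 7 of 31 above 0.

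Psma3, an alpha ring subunit (mm9 chr12:72075608-72097334, plus strand), was at -0.89 in famoxadone, -0.71 in pyridaben, -0.60 in fenpyroximate, -0.41 in pyraclostrobin, -0.32 in trifloxystrobin, -0.27 in fenamidone, -0.23 in fluoxastrobin, -0.19 in azoxystrobin, -0.06 in rotenone, 0.05 in cyazofamid and 0.36 in tebufenpyrad. It was below 0 in 9 of 11 chemicals and differed by -0.30 (SE 0.09, limma, adjusted p = 0.00675). Without famoxadone the difference was -0.24 and no longer passed (limma, adjusted p = 0.0545). The gene 3110056K07Rik overlaps Psma3 on the other strand, and the library kit does not mark strand, so reads of both cannot be told apart. In the count table that gene had 1 to 9 counts per library against 14 to 71 for Psma3.

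The remaining subunits gave small values. Psmd12, a lid subunit, differed by -0.13 (SE 0.06, limma, adjusted p = 0.0849) and Psme2b by 0.13 (SE 0.06, adjusted p = 0.105 by limma). Beside them, all 7 neuron markers fell (median -0.32) and 3 of 5 astrocyte markers rose (median of the 5, 0.36) in the same fit, and their part in the subunit values was not tested. Hmox1 rose by 0.77 (SE 0.17, limma, adjusted p = 0.000132), and the single libraries of pyraclostrobin and fenpyroximate reached 2.44 and 2.18 with subunit medians of 0.02 and -0.02.

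Pyraclostrobin at 0.1 μM was sequenced again with 4 libraries against 4 of vehicle; the first pyraclostrobin library of this table is also the one in the screen. The summed CPM of the 31 constitutive subunits was 2106, 1915, 1813 and 1891 after pyraclostrobin and 2900, 1795, 1762 and 1693 in vehicle. The groups overlapped through the first vehicle library alone, since every other vehicle sum lay below every pyraclostrobin sum. That first vehicle library lay far above the other 3. It was the highest of all 8 libraries for 26 of 31 constitutive subunits. Its ratio to the mean of the other vehicle libraries was 1.66 for the median constitutive subunit and 1.09 for the median gene, and its astrocyte markers summed to 861 CPM against 273 to 318 in the others. The part of cell makeup in this was not tested.

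Of the 45 members 39 passed the filter on low counts, which a gene could pass through 1 group alone. By edgeR's quasi-likelihood test 1 of the 39, Psma3, was called, and it fell, where 34.9% of 12324 genes were called, 18.5% higher and 16.4% lower. The median log2 difference over the 29 constitutive subunits tested was -0.10 against -0.00 over all genes. This median includes the first vehicle library, without which 18 of 39 members changed sign. None of the 6 ATPases and 11 non-ATPases passed, with values from -0.31 to 0.17. At an unadjusted p under 0.05 there were 3 members.

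Psma3 had 8.19, 5.23, 7.95 and 6.29 CPM after pyraclostrobin and 16.3, 12.8, 9.27 and 10.6 CPM in vehicle. The groups did not overlap, as for 35.2% of the genes tested. The means were 6.91 ± 1.40 and 12.3 ± 3.09 CPM (SD, n = 4 each), and the log2 difference was -0.79 (SE 0.26, edgeR, adjusted p = 0.0336). Of the members that passed the filter Psme3 was the other one without overlap, at 128, 132, 109 and 120 CPM against 150, 141, 136 and 143 CPM, with a difference of -0.22 (SE 0.11) that did not pass (edgeR, adjusted p = 0.155).

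The immunoproteasome genes were examined next to the subunits they replace. Psmb8 had 8.19, 5.98, 1.89 and 3.14 CPM after pyraclostrobin and 2.13, 0.388, 1.88 and 2.99 CPM in vehicle, a log2 difference of 1.24 (SE 0.51) that did not pass (edgeR, adjusted p = 0.0809). The groups overlapped, and both high libraries were of pyraclostrobin. Its counterpart Psmb5 had 22.2, 24.3, 26.9 and 26.3 CPM against 46.2, 20.6, 26.1 and 21.8 CPM.

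Psmb9 had 7, 5, 7 and 3 counts after pyraclostrobin and 2, 1, 1 and 1 in vehicle, too few for the filter. As CPM these were 2.73, 1.87, 2.65 and 1.18 against 0.711, 0.388, 0.134 and 0.150, with no overlap. Of the genes tested, which leave out Psmb9, 35.2% had no overlap either. Pooled over libraries, on raw totals without the TMM factors, the ratio was 9.16, with an exact 95% interval of 3.38 to 30.96 that covers counting error alone. Pooling gives the 2 deep vehicle libraries more weight. The mean CPM was 2.11 after pyraclostrobin and 0.346 in vehicle. Fitted without a filter on low counts, where 25.9% of genes were called, Psmb9 rose by 2.72 on the log2 scale (edgeR, adjusted p = 0.00528). Its counterpart Psmb6 had 49.1, 52.7, 38.2 and 55.0 CPM against 81.0, 51.2, 46.3 and 44.1 CPM.

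Psmb10 had 15.99, 12.0, 13.6 and 9.04 CPM after pyraclostrobin and 28.4, 15.5, 20.01 and 16.6 CPM in vehicle. It lay lower in the treated libraries, the opposite side from Psmb8 and Psmb9, with a log2 difference of -0.66 (SE 0.25) that missed the threshold (edgeR, adjusted p = 0.0595). It passed without the filter, with DESeq2, with the replicate number as a block and without the first pair, at adjusted p = 0.0311, 0.0473, 0.0196 and 0.0198. Its counterpart Psmb7 had 59.3, 38.9, 44.6 and 51.1 CPM against 79.2, 39.2, 34.1 and 34.99 CPM. Psme2b had 66.3, 52.7, 56.4 and 50.7 CPM against 64.3, 44.2, 38.3 and 34.4 CPM. The name match Psmc3ip had 2.73, 4.11, 3.78 and 3.54 CPM against 3.91, 2.72, 1.75 and 1.79 CPM.

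Interferon and antigen presentation genes rose in the same libraries: all 7 tested of 12 listed passed, among them Tap1, a peptide transporter, by 1.63 (SE 0.23), and B2m, the light chain of class I molecules, by 2.13 (SE 0.47). Markers of microglia, which express these genes, rose as well, in 5 of 5 tested, from between 20.9 and 29.1 CPM in sum in vehicle to between 70.6 and 126 CPM. Astrocyte markers rose in 3 of 5 tested, from sums of 273 to 861 CPM to sums of 658 to 2594 CPM, and mesenchymal and vascular markers in 4 of 4 tested, from 24.4 to 52.2 CPM to between 122 and 275 CPM. All 7 neuron markers fell, from a sum of 8597 to 9163 CPM to one of 3665 to 4627 CPM. The part of these cell types in the Psmb8 and Psmb9 values was not tested. Of 12 NRF2 targets 8 rose and none fell, Hmox1 by 3.99 (SE 0.52), and Nfe2l2 rose by 2.14 (SE 0.28), all past the threshold in edgeR, while Nfe2l1 gave 0.25 (SE 0.11, adjusted p = 0.103 by edgeR).

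Without the first pair of libraries 8 of the members were called by edgeR, where 50.2% of all genes were. Psmb4 (0.24), Psmb7 (0.33), Psmc3ip (0.96), Psmd13 (0.37) and Psme2b (0.48) rose, and Psma3 (-0.70), Psmb10 (-0.61) and Psme3 (-0.21) fell. Leaving out the first vehicle library alone gave 5 called, with Psmb7, Psmc3ip, Psmd13 and Psme2b higher and Psma3 lower (-0.62, edgeR, adjusted p = 0.0475). The count of called members thus depended on that library. No other library shifted it that far, although Psma3 itself missed the threshold without pyraclostrobin library 2, pyraclostrobin library 4 or vehicle library 2, at adjusted p = 0.0651, 0.0566 and 0.0698 (edgeR).

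**Figure D4:**
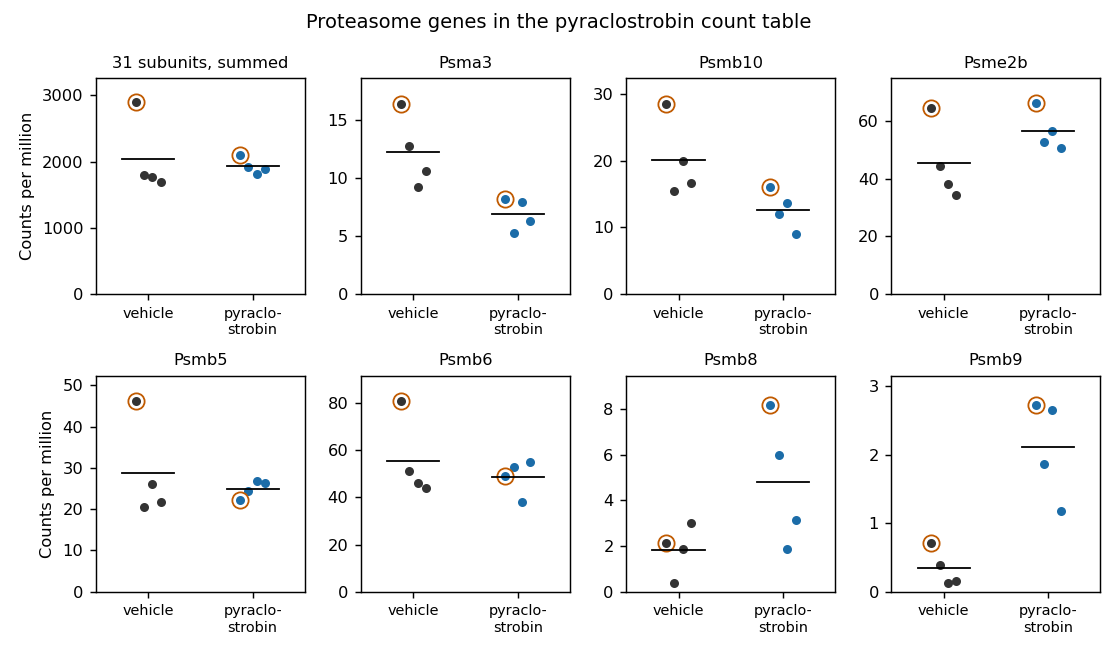
CPM in 4 vehicle and 4 pyraclostrobin libraries for the 31 constitutive subunits summed and for 7 genes, 1 point per library, with a line at the mean and a circle around the first library of each group. The circled vehicle library is the highest of its group for the sum at 2900 CPM, and the groups are apart for Psma3 and Psmb9. Groups were apart for 35.2% of the genes tested.

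Topotecan, an inhibitor of topoisomerase I used at 0.3 μM, offered the largest number of libraries, 32 against 49 of vehicle. In limma 22 of 41 members passed, 19 of them higher and 3 lower, where 45.8% of all genes were called, 24.8% higher and 20.9% lower. The constitutive subunits shifted by a median of 0.09 against 0.03 over all genes, with 26 of 31 above 0 against 57.1% of all genes. The shifts were small, none reaching 0.30. Of the 19S ATPases 5 of 6 rose, of the non-ATPases 5 rose and 1 fell among 11, of the beta subunits 3 of 7 rose, and in the alpha ring 1 rose and 1 fell among 7.

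Psmc4, an ATPase, ran from -0.16 to 0.42 with a median of 0.19 after topotecan, and from -0.42 to 0.36 with a median of -0.03 in vehicle. It was above the vehicle median in 28 of 32 libraries and rose by 0.22 (SE 0.04, limma, adjusted p = 1.84e-07). Psmc5, its neighbour in the ATPase ring, ran from -0.21 to 0.53 (median 0.25) against -0.57 to 0.49 (median 0.04). It was above the vehicle median in 29 of 32 libraries and rose by 0.23 (SE 0.04, limma, adjusted p = 9.94e-06). Psmc2, a further ATPase, ran from -0.31 to 0.49 (median 0.11) against -0.48 to 0.31 (median 0.01) and rose by 0.14. In a permutation test with 100000 resamples, two-sided, p was 2e-05 for both Psmc4 and Psmc5, the smallest it can give, and 0.00098 for Psmc2.

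Psmd5, which chaperones the ATPase ring during assembly, ran from -0.30 to 0.57 (median 0.30) against -0.50 to 0.50 (median 0.04) and rose by 0.24 (permutation p = 4e-05). Psmd10, another such chaperone known as gankyrin, ran from -0.43 to 0.60 (median 0.05) against -0.89 to 0.83 (median -0.15) and rose by 0.21 (permutation p = 0.00428). The ubiquitin receptor Psmd4 ran from -0.40 to 0.48 (median 0.17) against -0.56 to 0.38 (median -0.04) and rose by 0.18 (permutation p = 0.00016). In each case the ranges overlapped over most of their length and the medians were apart.

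In the core particle Psma1 ran from -0.25 to 0.43 (median 0.16) against -0.44 to 0.45 (median 0.01) and rose by 0.14 (permutation p = 8e-05). Psmb4 ran from -0.22 to 0.31 (median 0.14) against -0.59 to 0.28 (median 0.03) and rose by 0.15 (permutation p = 0.00016). The immunoproteasome gene Psmb10 ran from -0.94 to 0.72 (median 0.10) against -0.85 to 0.84 (median -0.11) and rose by 0.21 (permutation p = 0.0102). Psmb10 has the widest spread of the 3, with 24 of 32 libraries above the vehicle median.

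Among activators Psme1 ran from -1.30 to 1.17 (median 0.11) against -1.13 to 0.75 (median -0.13) and rose by 0.28 (SE 0.09, limma, adjusted p = 0.00935). Psme2b ran from -0.23 to 0.45 (median 0.13) against -0.53 to 0.32 (median -0.02) and rose by 0.16 (SE 0.04, limma, adjusted p = 0.000165). Psme4 went the other way: it ran from -0.77 to 0.25 (median -0.17) against -0.62 to 0.72 (median 0.07), was below the vehicle median in 27 of 32 libraries, and fell by 0.28 (SE 0.06, limma, adjusted p = 2.13e-05). Psmd1, the other large scaffold of the 19S base, and Psma3 also fell, by 0.11 (SE 0.03, limma, adjusted p = 0.0058) and by 0.14 (SE 0.06, limma, adjusted p = 0.0378).

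Psme4 (mm9 chr11:30671726-30780361) and Psmd1 (mm9 chr1:87960962-88059363) are the longest genes among the members, at 109 kb and 98.4 kb. Topoisomerase I inhibitors are known to lower the expression of long genes. Over the 39 members with an annotated gene the Spearman correlation of gene length with the topotecan difference was -0.51, and over 30 constitutive subunits -0.44. These are correlations across genes, which are not independent replicates. The third member above 50 kb, Psmb7 at 56.1 kb, gave 0.04 and did not pass.

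The related inhibitors camptothecin at 0.3 μM and irinotecan at 10 μM, each with 1 library, gave -0.32 and -0.21 for Psme4, -0.13 and -0.10 for Psmd1, 0.31 and 0.16 for Psmc5 and 0.37 and 0.31 for Psme1. Of the 22 members called with topotecan, 21 lay on the same side of 0 in camptothecin and 18 in irinotecan. The share over all genes called with topotecan was not counted, so these counts do not set the members apart. Here 0 is the median over the screen, whereas the topotecan differences were taken against vehicle. Psma3, which fell with topotecan, was at 0.02 and 0.12. Neuron markers fell in 6 of 7 and astrocyte markers in 4 of 5 in the topotecan fit, with medians of -0.22 and -0.50, and their part in the subunit values was not tested.

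**Figure D5:**
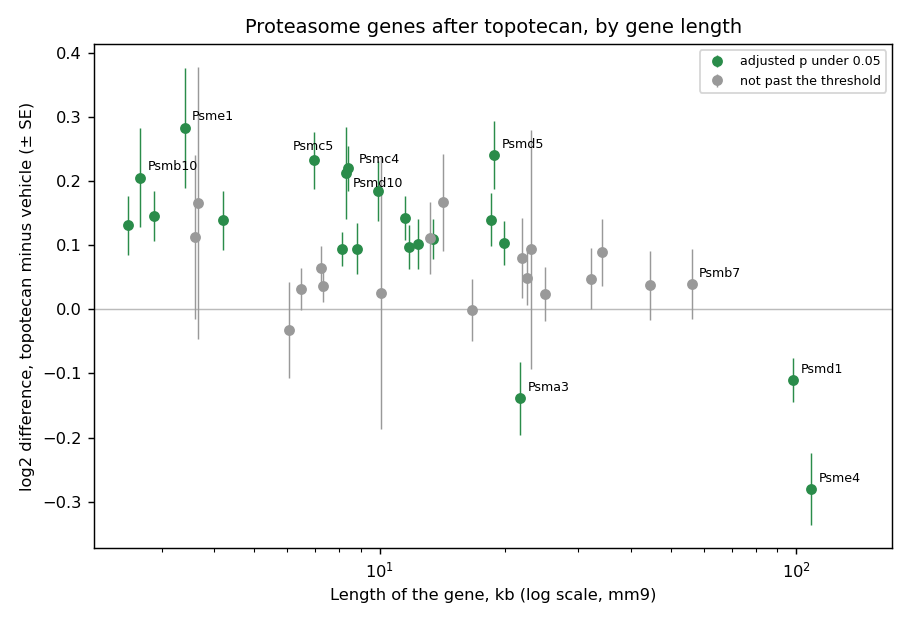
Log2 difference between 32 topotecan and 49 vehicle libraries (± SE) for each member with an annotated gene, against gene length in kb on a log axis, green where the adjusted p was under 0.05. Psme4 and Psmd1, at 109 and 98.4 kb, lie below 0, and most shorter genes lie above it.

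Genes that work with the proteasome but lie outside the symbols were examined as a list of 12 measured assembly factors, inhibitors and associated proteins. In the topotecan fit 3 of the 12 rose and 1 fell, among them Adrm1, a ubiquitin receptor of the 19S cap, by 0.28 (SE 0.09), and Psmf1, the inhibitor PI31, by 0.10 (SE 0.04). In pyraclostrobin 0 of 12 passed in edgeR, with 2 at an unadjusted p under 0.05, and in the mitochondrial class 1 fell. Of 15 regulators of proteasome expression and substrate delivery, 4 rose and 1 fell with topotecan, 2 rose and 3 fell with pyraclostrobin, and 2 rose and 2 fell in the mitochondrial class. Over all genes the called shares in these fits were 45.8%, 34.9% and 24.6%. For both the dithiocarbamates and the thiol-reactive chemicals 0 of the 12 and 0 of the 15 passed in limma, with 1 of 12 in each class and 0 and 5 of 15 at an unadjusted p under 0.05.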

How the data were processed

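Total RNA of cortical cultures was made into libraries with a kit that does not mark strand. Per the labels and the study's methods the authors used TagDust to drop artefact reads and TopHat with mm9 for alignment, removed ribosomal reads and counted over RefSeq exons by gene symbol. The counts for pyraclostrobin were deposited as raw counts. For the screen the authors deposited log10 values, made from RPKM, quantile-normalized, centred on each gene's median and adjusted by a mixed-model ANOVA for the batches of culture and of sequencing, so batches can no longer be examined. These were multiplied to log2. Libraries of a chemical were combined by their median.

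Members and lists were chosen with earlier results of these data known. Every member could be named; per-library values were given for called members (at most 12 a comparison), Psmb8, Psmb9 and Psmb10 with their counterparts, and Psmc3ip. Other genes came from fixed lists or were the 10 closest to the subunit median. Classes of chemicals followed structure or target. Tests ran over all genes with Benjamini-Hochberg adjustment at 0.05, two-sided: limma 3.58.1 (eBayes, no trend) for the screen, and edgeR 4.0.16 (quasi-likelihood, TMM, at least 10 counts in at least 4 libraries) for counts, with DESeq2 1.42.0 as an alternative. Both fits were also run on simulated data with 200 changed genes, in which genes varied independently. That does not show how the fits perform on the correlated values of real libraries. Gene spans came from GENCODE on mm9 and promoters from RefSeq on GRCm38.p6. The sulforaphane table was not used, since its 6 columns carry 1 name.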

Additional observations from a re-analysis of the deposited data

Results flagged for a closer look

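In the 4 vehicle libraries of the count table, the summed CPM of the 31 constitutive subunits held 1 library far from the other 3: the gap from the first library, at 2900 CPM, to the next filled 0.915 of the range of the group. Psmb7, an active-site subunit, showed the same at 0.888 of the range, with 79.2 CPM in the first library and 34.1 to 39.2 CPM in the others. Chance alone gives such a gap in about 1 in 20 groups. Of the 39 members that passed the filter, 10 had it in vehicle, in each case with the first library highest, and 1 had it among pyraclostrobin libraries. The share over all genes was not counted, and members in the same library do not vary independently. These counts thus do not set the members apart from other genes.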

How the results depend on the processing

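The counts of 0 called members for dithiocarbamates, for thiol-reactive chemicals and for the contrast between them stayed at 0 under every alternative run, leaving out each chemical included. For mitochondrial inhibitors the count of 1 became 3 with each library as a value and 4 (1 higher, 3 lower) with libraries against vehicle libraries, and ranged from 0 to 2 when each chemical was left out, 0 being without famoxadone. For pyraclostrobin the count of 1 became 0 at a threshold of 0.01, 3 with DESeq2, 3 with no filter (Psma3, Psmb9 and Psmb10 in both) and, in an alternative chosen after seeing the data, 8 without the first pair of libraries, and ranged from 0 to 5 when each library was left out. With the replicate number as a block it was 2, with Psmb10 at -0.66 (edgeR, adjusted p = 0.0196). Same-numbered libraries deviated together with correlations of 0.376, 0.102, -0.029 and 0.161. The highest correlations with a vehicle library of another number were -0.221, 0.218, 0.062 and 0.200. Only the first pair thus exceeded these, and the numbers were not taken to pair the samples. For topotecan the 22 calls became 15 at 0.01, and with all other chemicals as reference 19 of the 22 passed, Psmb10, Psmd10 and Psma3 being lost. Centring each profile on its own median, chosen after seeing the data, lost Psmd6. No called difference changed sign under any alternative. Differences that were not called did: for pyraclostrobin 18 of 39 members changed sign without the first vehicle library and 18 of 39 without the first pair, and for thiol-reactive chemicals 6 of 41 did without chlorothalonil. The alternatives for sulforaphane were not run. With 2409623 to 2893598 counts in 6 libraries, Psmb9, Psma5, Psmb3 and Psme2 were too low for the filter, and with 5 dithiocarbamates small changes were not detectable.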
